A study of Mus musculus with 2 samples.

Results

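Immediate early genes are the first genes that a cell transcribes after a stimulus, and 10 of them were followed here across the cell types of the mouse parotid gland, a serous salivary gland. The set held the AP-1 subunits Fos, Fosb, Jun, Junb and Jund, the transcription factors Egr1, Ier2 and Atf3, the phosphatase gene Dusp1 and the mRNA decay factor gene Zfp36. They were taken by symbol and were 10 of the 48825 features listed for each library. The set was selected on measured values, the levels and the IR over control differences of these genes in these same libraries, so what follows is a description. The data were 2 single-cell RNA-seq libraries from wild-type C3H female mice, 1 control and 1 irradiated (IR). IR mice had received 6 Gy per day to the head and neck on 5 days, 30 Gy in total, at 6 to 10 weeks of age, and the glands were collected 10 months later, at about 1 year of age. Glands of 2 mice per condition were dissociated together and made into 1 library. Pool, dissociation and IR therefore cannot be told apart, and no difference between control and IR could be tested.

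Fos and Jun family proteins pair through leucine zippers to form AP-1, which binds TGAGTCA and related motifs. Mitogen-activated protein kinases, serum response factor and cAMP-responsive factors switch these genes on within minutes, and their mRNAs are short-lived. Dusp1 inactivates the kinases and Zfp36 promotes decay of AU-rich mRNAs, so both act as brakes on the same response. In dissociated tissue these genes are also known to be induced during enzymatic digestion.

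After removal of barcodes with under 200 genes or over 5% mitochondrial unique molecular identifiers (UMIs), 3378 control and 5286 IR cells remained, with 19068309 and 20348028 UMIs. The median control cell had 2907.5 UMIs and the median IR cell 2461.5, and the median mitochondrial share was 2.25% and 2.75%. The 10 genes took 75067 control and 101241 IR UMIs. The libraries shared 12 barcodes, of which 3 were kept in both. Cells were grouped without using the 10 genes, named after markers, and compared in the 18 named classes with at least 10 cells in each library. A further 3 groups, remainders of clusters 5, 7 and 8, stayed unnamed and are given apart. Each named class expressed at least 3 markers of its name at 2 times or more the level in other cells, and the Etv1+ cells were split into a part rich in secretory transcripts and a part poor in them. Levels are given as CPM, the UMIs of a gene divided by the UMIs of all genes in the cells of a class, on the usual scale of 1000000 UMIs. Intervals are exact and at 95%, and they cover counting error only, not the spread between mice. A gene was counted as past the size rule where the IR CPM was at least 1.5 times the control CPM, or the control CPM at least 1.5 times the IR CPM, from at least 50 UMIs over both libraries.

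The stretches before the start sites of Fos, Jun and Dusp1 are shown because these genes were higher in IR across several lymphocyte classes and because each stretch holds a motif of the cAMP-responsive or AP-1 type. They are the 150 bases ahead of the RefSeq start in GRCm38.p6, on the coding strand, with motif matches in capitals.
Fos, chr12:85473740-85473889, plus strand: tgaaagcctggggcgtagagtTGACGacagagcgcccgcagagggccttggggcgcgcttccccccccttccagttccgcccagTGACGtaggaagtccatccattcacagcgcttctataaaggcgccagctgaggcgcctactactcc
Jun, chr4:95052223-95052372, minus strand: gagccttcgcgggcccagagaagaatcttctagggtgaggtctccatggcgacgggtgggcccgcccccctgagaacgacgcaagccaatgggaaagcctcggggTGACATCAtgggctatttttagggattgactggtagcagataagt
Dusp1, chr17:26508473-26508622, minus strand: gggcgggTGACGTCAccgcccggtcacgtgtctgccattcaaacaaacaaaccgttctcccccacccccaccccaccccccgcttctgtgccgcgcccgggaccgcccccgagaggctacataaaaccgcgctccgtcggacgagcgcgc
The capitals mark TGACG at 129 and 66 bases before the Fos start, TGACATCA at 45 bases before the Jun start, and TGACGTCA at 143 bases before the Dusp1 start.

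Promoter windows were searched for 8 of the 10 genes, not for Egr1 and Ier2, and each 250-base window was searched on both strands. The Jund window ended at chr8:70697738, ahead of the GENCODE start of Jund at 70698949. Its lack of a match therefore does not describe the bases next to that start. The RefSeq starts used for Atf3, Dusp1 and Zfp36 lay within the GENCODE spans of these minus-strand genes. Their 150-base stretches reached to chr1:191183483, chr17:26508622 and chr7:28379378, short of the GENCODE starts at 191218039, 26562128 and 28380253. Matches for these genes describe the RefSeq starts only. The full cAMP-responsive element TGACGTCA was found for Dusp1 alone among the 8, and in 1.55% of 32851 mouse promoter windows. TGACATCA was found for Jun alone and in 2.93% of windows. The shorter TGACG, which lies within TGACGTCA, was found for Fos, Fosb, Junb, Atf3 and Dusp1, which is 5 of 8, and in 17.8% of windows. A CArG box, the site bound by serum response factor, was found for Zfp36 alone and in 1.47% of windows. TGAGTCA was in none of the 8 and in 4.46% of windows. A match is a description of letters, not evidence of binding. Bases farther upstream than the windows were not searched, so a gene without a match here may have one there. In the same build (GENCODE M21) Fos spans chr12:85473890-85477273 with up to 4 exons, Jun spans chr4:95049034-95052222 as a single exon, and Fosb spans chr7:19302696-19310051. Zfp36 spans chr7:28376784-28380253 and Atf3 spans chr1:191170296-191218039.

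In control cells the 10 genes together were highest in stromal-like cells, at 24968 CPM (24248 to 25705), followed by endothelial-like cells at 19480 CPM and a macrophage-like cluster (cluster 13) at 13489 CPM. Etv1+ secretory-poor cells came next at 10624 CPM, and Cxcr6+ T-like cells at 8321 CPM. The lymphoid classes lay in the middle of the order, with helper and FoxP3+ T-like cells at 7337 CPM, NK-like cells at 7017 CPM, B-like cells at 5467 CPM, naive T-like cells at 4215 CPM and CD8+ T-like cells at 3759 CPM. Acinar-like cells were lowest, at 959 CPM (924 to 995). Neighbours in this order had intervals that did not overlap except helper and FoxP3+ T-like with NK-like cells, striated duct-like (4356 CPM) with naive T-like cells, and the run from a second macrophage-like cluster (cluster 9, 2259 CPM) through Etv1+ secretory-rich (2041 CPM) and cycling T-like cells (1993 CPM) to intercalated duct-like cells (1917 CPM). Secretory transcripts filled 86.3% of the UMIs of control acinar-like cells and 80.6% of those of Etv1+ secretory-rich cells. With abundant genes left out of the total, Etv1+ secretory-rich cells stood at place 5 of 18 in place of place 14. Acinar-like and intercalated duct-like cells also moved up, and cycling T-like cells were then lowest. The order with and without abundant genes had a Spearman rho of 0.67. The places of these secretory classes, with the lowest place of acinar-like cells, thus depended on the denominator.

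**Figure D1:**
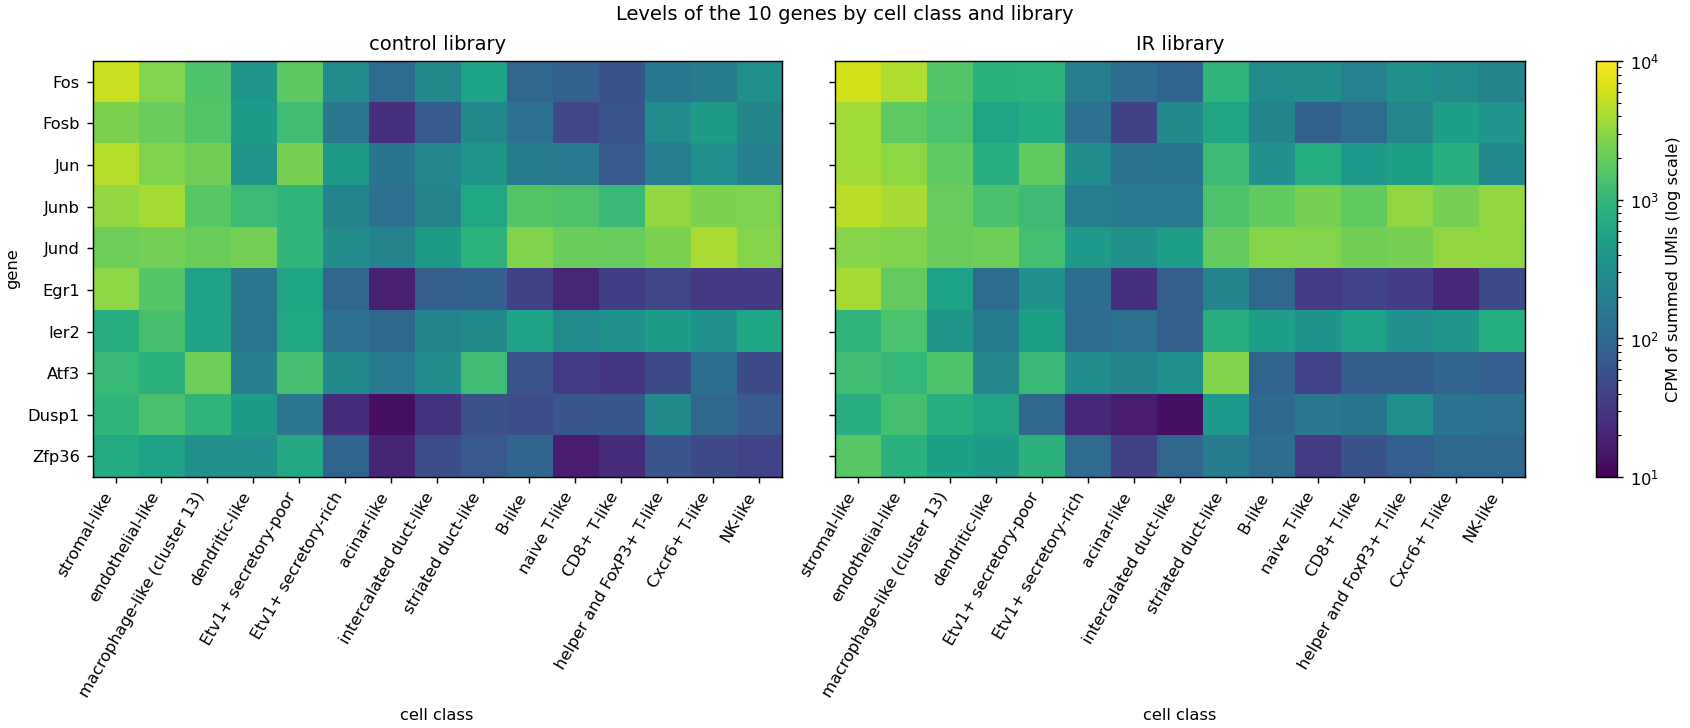
The CPM of each of the 10 genes (rows) in 15 of the 18 cell classes (columns), with control and IR in separate panels and the colour on a log scale. Stromal-like, endothelial-like and macrophage-like cells carry high levels of most genes in both panels, while Junb and Jund are high in the lymphoid classes too.

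The order of the 18 classes was alike in the 2 libraries for the summed genes, with a Spearman rho of 0.93, given as a description. The same rho was 0.98 for Atf3, 0.95 for Junb and 0.71 for Fos, the lowest of the 10. Fos, which encodes the founding partner of Jun in AP-1, ranged in control cells from 32.1 CPM in cycling T-like cells, where it rested on 5 UMIs, to 5811 CPM in stromal-like cells. Jun, which can pair with Fos or with itself, ranged from 68.9 CPM in red blood-like cells to 4631 CPM in stromal-like cells. Egr1, a zinc finger factor, spanned 12.9 CPM in cycling T-like to 3073 CPM in stromal-like cells. Ier2, a small nuclear protein gene, had a narrower span, from 101.5 CPM in acinar-like to 1322 CPM in endothelial-like cells. With abundant genes left out of the total, dendritic-like cells were lowest for Ier2 and CD8+ T-like cells for Jun. Atf3, a stress-induced factor of the ATF family, peaked elsewhere, at 2182 CPM in the macrophage-like cluster 13, or in Etv1+ secretory-poor cells with abundant genes left out. Jund, the AP-1 subunit known for steady expression in resting cells, was highest in Cxcr6+ T-like cells, at 4107 CPM.

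The make-up of the summed UMIs differed between the lymphoid classes and most, but not all, other classes. Junb and Jund took 82.9% of the UMIs of the 10 genes in control naive T-like cells, 81.7% in CD8+ T-like cells and 78.2% in B-like cells. In stromal-like cells they took 21.9%, and Fos, Fosb, Jun and Egr1 took 64.4%. Outside the lymphoid classes, Junb and Jund took 67.4% in control red blood-like cells (59.9 to 74.4) and 58.0% in control dendritic-like cells. The red blood-like share was close to the 70.3% of control cycling T-like cells (64.9 to 75.4). Atf3 took 17.3% of these UMIs in acinar-like cells and 26.8% in striated duct-like cells, against 0.815% in naive T-like cells. Atf3 took 12.4% to 15.6% in Etv1+ and intercalated duct-like cells and 16.2% in the macrophage-like cluster 13. Naive T-like, CD8+ T-like and B-like cells thus held mainly Junb and Jund, and stromal-like cells mainly Fos, Fosb, Jun and Egr1.

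**Figure D2:**
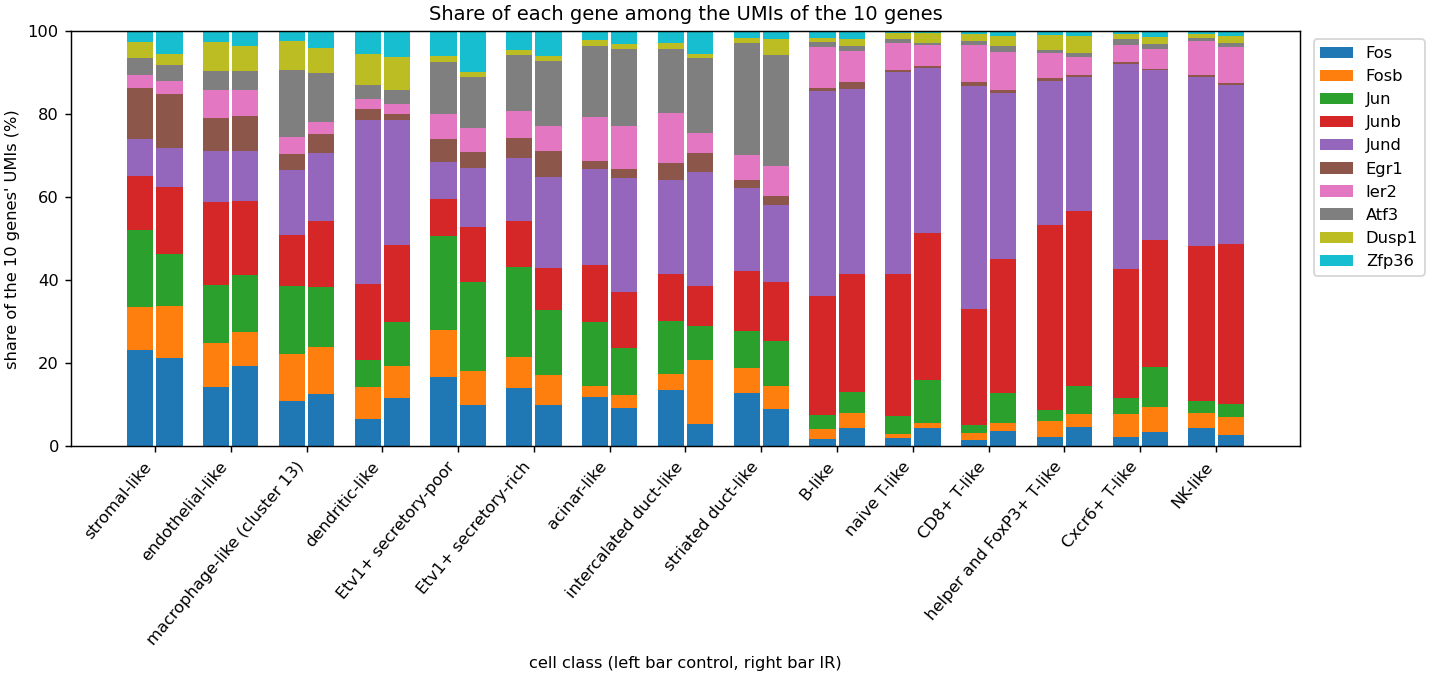
Stacked bars give the percent of the UMIs of the 10 genes that each gene took, with a control (left) and an IR (right) bar for each cell class. Of the 18 classes 15 are drawn. Junb and Jund together take 82.9% in control and 75.1% in IR naive T-like cells, and 26.0% and 32.0% in Etv1+ secretory-rich cells.

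Between control and IR, the share of Fos and Jun in the summed UMIs was higher in IR in T-like, B-like, dendritic-like and endothelial-like cells. It was lower in Etv1+, acinar-like, intercalated duct-like and stromal-like cells. In naive T-like cells Fos and Jun took 6.25% of the summed UMIs in control (5.77 to 6.76) and 14.8% in IR (14.4 to 15.2). In CD8+ T-like cells the share was 3.45% in control and 10.8% in IR, and in B-like cells 5.15% and 9.51%. In Etv1+ secretory-rich cells it was 35.7% in control (34.9 to 36.5) and 25.7% in IR (24.7 to 26.7), and in Etv1+ secretory-poor cells 39.4% and 31.6%. It was 27.3% and 20.7% in acinar-like cells, 26.3% and 13.7% in intercalated duct-like cells, and 41.8% and 33.8% in stromal-like cells. NK-like cells, at 7.51% (5.85 to 9.45) in control and 5.73% (4.65 to 6.98) in IR, were the lymphoid class in which the share was not higher in IR. These 2 intervals overlapped. The Fos and Jun shares do not depend on the total over all genes. Fos UMIs per Jund UMI were 0.0410 in control and 0.113 in IR naive T-like cells, and 0.934 and 0.456 in Etv1+ secretory-rich cells.

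Naive T-like cells, 715 control and 1833 IR cells marked by Lef1, Ccr7, Tcf7 and Dapl1, had higher levels of most of the 10 genes in IR. By the size rule 7 of the 10 genes were higher in IR and none was lower, against 14.8% of all genes tested higher and 2.36% lower in this class. The median log2 ratio was 0.87 over the 10 genes and 0.19 over all 7385 genes tested. The 10 genes together were at 4215 CPM in control and 6931 CPM in IR, a ratio of 1.64 (1.61 to 1.68). With factors that set the middle of the gene distribution equal (TMM, an IR shift of 0.18 on the log2 scale) the ratio was 1.46, and 6 genes passed the rule.

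Among the AP-1 subunits of naive T-like cells, Jun was at 179 CPM in control and 714 CPM in IR, a ratio of 3.98 (3.59 to 4.43). Fos was at 84.0 CPM in control and 311 CPM in IR, a ratio of 3.70 (3.17 to 4.33). Fosb, the second Fos family member, was at 43.4 and 86.5 CPM, a ratio of 1.99. Fos and Jun were thus well separated between the libraries, and the more abundant subunits less so. Junb was at 1441 CPM in control and 2455 CPM in IR (ratio 1.70), and Jund at 2051 and 2751 CPM (ratio 1.34). Of the other factors, Egr1 was at 20.8 and 33.0 CPM (1.59) and Ier2 at 281 and 352 CPM (1.26), while Atf3, at 34.3 and 40.1 CPM, had an interval that included 1 (0.889 to 1.55). Both brakes were higher, with Dusp1 at 62.8 CPM in control and 154 CPM in IR (2.45, 2.04 to 2.96) and Zfp36 at 17.6 and 34.3 CPM (1.95, 1.36 to 2.84).

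CD8+ T-like cells, 220 control and 405 IR cells, carried the largest Jun ratio of the 17 named classes with 50 UMIs of Jun. Jun was at 71.6 CPM in control and 405 CPM in IR, a ratio of 5.66 (4.39 to 7.39), and Fos at 57.9 and 214 CPM, a ratio of 3.69 (2.76 to 5.02). Here 8 of the 10 genes were higher by the size rule and none lower, against 14.2% of genes higher and 4.49% lower, with Jund (1.13) and Egr1 (1.13) short of it. Atf3, whose interval in naive T-like cells included 1, was at 29.5 CPM in control and 75.8 CPM in IR CD8+ T-like cells, a ratio of 2.57 (1.68 to 4.05). The brakes were again higher, with ratios of 2.23 for Dusp1 and 2.52 for Zfp36.

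Helper and FoxP3+ T-like cells, 213 control and 564 IR cells, showed a narrower pattern. The summed level was 7337 CPM in control and 7542 CPM in IR, with an interval of the ratio that included 1 (0.993 to 1.06). Under the size rule 3 genes were higher and none lower, against 14.4% of genes higher and 4.74% lower in the class. Jun was at 196 CPM in control and 498 CPM in IR (2.54, 2.10 to 3.09), Fos at 163 and 349 CPM (2.14, 1.73 to 2.66), and Atf3 at 49.8 and 77.2 CPM (1.55, 1.04 to 2.37). Ier2 went the other way, at 442 CPM in control and 325 CPM in IR, a ratio of 0.736 (0.634 to 0.855). Junb, at 3263 and 3186 CPM, had an interval that included 1 (0.927 to 1.03). The median log2 ratio of the 10 genes, 0.10, was below that of all genes tested, 0.16.

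B-like cells, 838 control and 834 IR cells marked by Cd79a, Cd79b and Ms4a1, had 5 genes higher and none lower, against 9.93% of genes higher and 3.91% lower. Fos was at 97.7 CPM in control and 285 CPM in IR, a ratio of 2.91 (2.497 to 3.41). Egr1 was at 39.2 and 100.7 CPM, a ratio of 2.57 (2.001 to 3.32), which was its highest ratio in any named class with 50 UMIs. Dusp1 was at 52.1 and 105 CPM (2.03), Fosb at 130 and 236 CPM (1.82) and Jun at 184 and 329 CPM (1.79). The abundant members differed little, with Junb at 1572 and 1833 CPM and Jund at 2703 and 2882 CPM, and Ier2 was lower in IR, at 532 and 478 CPM (0.898, 0.825 to 0.977). The Jund direction in B-like cells depended on the scaling, with a ratio of 1.07 by CPM and 0.974 with TMM factors.

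**Figure D3:**
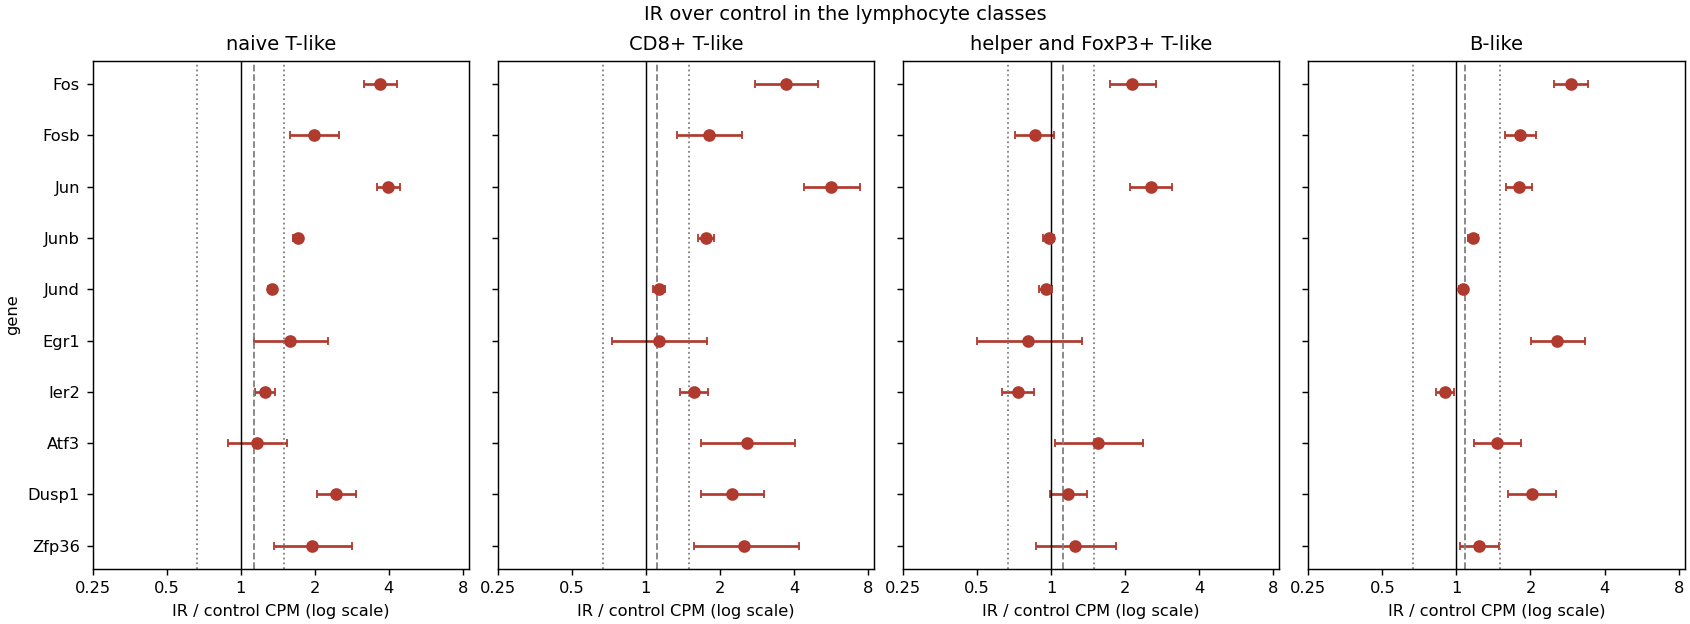
IR over control CPM ratio of each gene on a log axis in the 4 larger lymphocyte classes, with exact 95% intervals from counting. The solid line is a ratio of 1, the dashed line the median of all genes tested and the dotted lines the size rule. Fos and Jun lie to the right of the upper dotted line in all 4 panels, from 1.79 for Jun in B-like cells to 5.66 for Jun in CD8+ T-like cells.

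Cells were also compared one by one after every cell was thinned to 1000 UMIs, which left out 360 control and 492 IR cells of lower depth. The median naive T-like cell had 4 UMIs of the 10 genes in control and 6 in IR. The share of cells with 10 or more was 5.82% in control and 27.1% in IR, whereas the share with none was 2.56% and 2.57%. The IR distribution was thus wider at its upper end, with an upper quartile of 6 and 10 UMIs in control and IR. In CD8+ T-like cells the share with 10 or more was 4.57% in control and 17.9% in IR, in B-like cells 13.2% and 22.9%, and in helper and FoxP3+ T-like cells 30.5% and 35.6%.

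**Figure D4:**
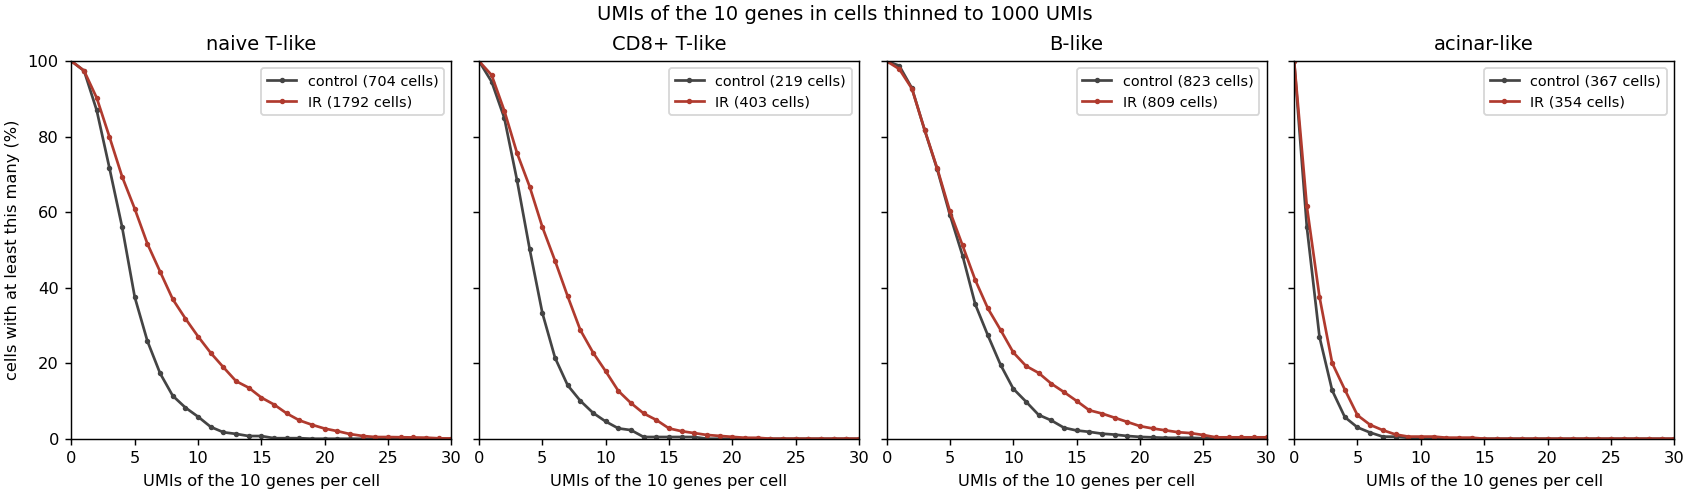
Percent of cells (y axis) with at least a given number of UMIs of the 10 genes (x axis) after thinning each cell to 1000 UMIs, control and IR, in 4 classes. In naive T-like cells the IR curve lies above the control curve over the whole upper range, at 27.1% against 5.82% for 10 UMIs.

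A UMI of Fos was found in 6.82% of thinned control naive T-like cells (5.07 to 8.94) and in 20.8% of IR cells (18.9 to 22.7), and in 19.3% and 34.7% without thinning. Fos and Jun were found together in 1.42% of control and 12.3% of IR naive T-like cells (0.683 to 2.597 and 10.8 to 13.9). No class of the gland is known to lack Fos. In red blood-like cells, the nearest to one, 2 of 23 thinned control cells (8.70%, 1.07 to 28.0) and 2 of 19 IR cells (10.5%, 1.30 to 33.1) had a Fos UMI, at median depths of 6338 and 3503 UMIs before thinning. The control share in naive T-like cells, with a median depth of 3091 UMIs, lay within the red blood-like interval, and too few red blood-like cells were present to place either share against a background. In the discarded barcodes with under 200 genes Fos was at 53.6 CPM in control and 65.9 CPM in IR, a smaller gap than in any of the 4 lymphocyte classes. The control level in naive T-like cells, 84.0 CPM (72.4 to 97.0), was above that of these barcodes. In CD8+ T-like cells the control level, 57.9 CPM (43.6 to 75.4), was not set apart from it. What RNA these discarded barcodes held was not tested, so their Fos level is not a measure of background.

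Several library measures moved with the lymphocyte result. IR naive T-like cells had a lower median depth (2418 against 3091 UMIs) and a higher mitochondrial share (2.82% against 2.30%), with secretory transcripts at 5.91% and 6.17%. Within bins of mitochondrial share (0 to 2, 2 to 3 and 3 to 5%) the Fos ratio in naive T-like cells was 5.69, 3.59 and 3.12 and the Jun ratio 7.58, 3.90 and 2.26. Within bins of depth (under 2000, 2000 to 3000 and over 3000 UMIs) the Fos ratio was 3.73, 3.32 and 3.49 and the Jun ratio 3.68, 3.82 and 3.04. The direction in naive T-like cells was therefore kept in all 6 bins, and the size was largest at low mitochondrial share. In helper and FoxP3+ T-like cells the ratio fell further over the same mitochondrial bins, from 5.87 to 2.53 and 1.46 for Fos and from 7.85 to 3.43 and 1.4998 for Jun, and the summed level had a ratio of 0.807 (0.769 to 0.848) in the highest bin, which held 321 of the 564 IR cells. In CD8+ T-like cells with 2000 to 3000 UMIs, of which control held 21, the summed ratio was 1.03. In B-like cells Fos kept ratios of 2.63 to 3.27 over the 3 mitochondrial bins, whereas the summed level had a ratio of 0.875 in the lowest bin, which held 32 IR cells, and Jun fell short of the size rule over 3000 UMIs, at 1.42. The part of depth and mitochondrial share in these results was not tested.

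The naive T-like, B-like, CD8+ T-like and helper classes were also split into smaller clusters without the 10 genes, and those with at least 20 cells in each library were compared. In naive T-like cells the Fos ratio over 10 such clusters was over 1 in all 10, from 1.10 to 6.59, and reached 1.5 in 8, and the Jun ratio ran from 1.04 to 6.82. The Fos interval included 1 in several, among them the lowest (0.623 to 1.99) and that with the most control cells (0.987 to 2.27). The summed ratio ran from 0.926 to 2.43 and reached 1.5 in 3 of the 10. The clusters with the most IR cells, 441 and 265 against 47 and 98 in control, had summed ratios of 2.24 and 2.43. The part of these unlike cluster sizes in the class ratio was not tested. Fos ran from 1.78 to 5.05 over 6 clusters of B-like cells, from 1.93 to 13.7 over 4 of CD8+ T-like cells and from 1.51 to 5.18 over 4 of helper and FoxP3+ T-like cells. The 13.7 rested on 1 control UMI of Fos (2.18 to 570) and the 5.18 on 5. The lowest ratios in CD8+ T-like cells (0.969 to 4.06) and in helper and FoxP3+ T-like cells (0.754 to 3.30) had intervals that included 1. In the clusters with fewer cells and a control UMI of Fos, the ratio ran from 1.84 to 4.02 over 3 of naive T-like cells, was 7.32 in 1 of CD8+ T-like cells, and ran from 0.936 to 3.92 over 3 of helper and FoxP3+ T-like cells, so 1 of the last was not higher. The 7.32 also rested on 1 control UMI (1.14 to 307). Jund was less uniform in direction, with ratios over 1 in 6 of the 10 naive T-like clusters.

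A list of 42 other immediate early genes was read beside the 10. In naive T-like cells 33 had 50 UMIs, of which 14 were higher and none was lower, against 14.8% of all genes tested higher and 2.36% lower. The median log2 ratio was 0.48, and 0.19 over all genes tested. Rhob, a small GTPase gene, was at 22.6 CPM in control and 72.2 CPM in IR (3.20), Klf6, a Krüppel-like factor, at 307 and 777 CPM (2.53), and Myc at 8.13 and 19.6 CPM (2.41). Nfkbia, the inhibitor of NF-kB, was at 316 and 219 CPM, a ratio of 0.692. The list was thus not uniform, and in CD8+ T-like cells 16 of 31 were higher and 2 lower, with Maff at 6.39, Rhob at 4.41 and Nr4a3, an orphan nuclear receptor gene, at 0.424. Over all genes tested in CD8+ T-like cells, 14.2% were higher and 4.49% lower. In B-like cells 16 of 33 were higher and none lower, against 9.93% and 3.91% of all genes. In helper and FoxP3+ T-like cells 7 of 29 were higher and 5 lower, against 14.4% and 4.74%. NK-like cells had 14 of 21 higher and none lower, against 15% and 7.53%. Acinar-like cells had 9 of 18 higher (7 with abundant genes left out) and none lower, against 21.2% and 2.39%. Of 24 in stromal-like cells 10 were higher and 1 lower, against 17% and 25%. Endothelial-like cells had 3 of 29 higher and 4 lower, against 6.19% and 11.4%. Etv1+ secretory-poor cells had none of 11 higher and 2 lower, against 15.3% each way. Etv1+ secretory-rich cells had 8 of 32 higher and 1 lower, against 15.1% and 3.28%. With abundant genes left out these counts were 4 and 3. The median log2 ratio of the list there was 0.35, and 0.21 over all genes tested. Among 17 kinases and factors that act upstream, 4 of the 15 measured in naive T-like cells were higher, including Mapk9 (1.88), against 14.8% of all genes. In B-like cells 1 of 13 was higher, Map2k1 (1.62), against 9.93% of all genes, and in CD8+ T-like cells 0 of 7. The median log2 ratio of this list in B-like cells was 0.12, and 0.11 over all genes tested.

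Heat shock genes, which also respond to stress, had the opposite direction in the same lymphocytes. The 11 genes of the list together were at 9611 CPM in control and 5259 CPM in IR naive T-like cells, a ratio of 0.547 (0.537 to 0.557). By the size rule 7 of 11 were lower and none higher, against 2.36% of all genes lower and 14.8% higher. Hsph1 was at 330 and 73.8 CPM (0.224) and Hsp90aa1 at 1811 and 692 CPM (0.382), whereas Dnajb1, at 403 and 399 CPM, had a ratio of 0.990 with an interval that included 1. The summed ratio was 0.583 in CD8+ T-like, 0.554 in helper and FoxP3+ T-like, 0.602 in B-like and 0.409 in dendritic-like cells. In acinar-like cells it was 1.05 and in stromal-like cells 0.9498, both with intervals that included 1. Other classes outside the lymphocytes also had intervals below 1. They were Etv1+ secretory-poor (0.635), macrophage-like cluster 13 (0.649), endothelial-like (0.794), intercalated duct-like (0.844) and Etv1+ secretory-rich cells (0.876). Red blood-like cells went the other way (1.66, 1.35 to 2.05). In both parts of the Etv1+ cells the Fos CPM was lower in IR too, so the opposite direction was not general. The part of sample handling in either list was not tested.

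Acinar-like cells, the serous secretory cells of the gland, had 386 control and 374 IR cells. The 10 genes together were at 959 CPM in control and 1261 CPM in IR, a ratio of 1.32 (1.2516 to 1.38) that became 1.10 with abundant genes left out and 1.04 with TMM factors. Jund, at 220 and 346 CPM (1.57), and Zfp36, at 20.5 and 38.0 CPM (1.86), were higher by the size rule and none was lower, against 21.2% of genes higher and 2.39% lower. With abundant genes left out only Zfp36 passed, and with TMM factors neither did. Fos, at 114 and 118 CPM, and Jun, at 148 and 143 CPM, had CPM ratios of 1.04 and 0.969 with intervals that included 1, and with abundant genes left out these became 0.863 and 0.806, so the Fos direction depended on the scaling. Secretory transcripts were 86.3% of control and 83.5% of IR UMIs in this class. The large lymphocyte differences of Fos and Jun were therefore not seen in acinar-like cells under any of these scalings.

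Etv1+ secretory-rich cells, 181 control and 150 IR cells, had lower Fos and Jun CPM in IR. Fos was at 285 CPM in control and 189 CPM in IR, a ratio of 0.664 (0.609 to 0.724), and Jun at 443 and 298 CPM, a ratio of 0.672 (0.627 to 0.720). Fos alone was past the size rule, with none higher, against 3.28% of genes lower and 15.1% higher. With abundant genes left out or with TMM factors both Fos and Jun passed, at 0.570 and 0.577 without abundant genes. Jund was at 305 and 416 CPM, a ratio of 1.36 that stayed above 1 under both scalings (1.17 and 1.15), while Atf3 turned from 1.09 by CPM to 0.934 without abundant genes. The median log2 ratio was -0.20 over the 10 genes and 0.21 over all genes. Median depth in these cells was 35061 UMIs in control and 18616 in IR, and the part of depth in the result was not tested.

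Etv1+ secretory-poor cells, 61 control and 87 IR cells with median depths of only 1028 and 991 UMIs, shared the lower Fos CPM. Fos was at 1773 CPM in control and 870 CPM in IR, a ratio of 0.491 (0.378 to 0.635). Fosb (1197 and 701 CPM, 0.585) and Egr1 (599 and 338 CPM, 0.564) were also lower by the rule. This made 3 lower and none higher of the 9 genes with 50 UMIs, against 15.3% of genes lower and 15.3% higher. Jun was at 2418 and 1858 CPM, a ratio of 0.768 (0.632 to 0.934), and Zfp36 at 646 and 853 CPM, with an interval that included 1. In both parts of the Etv1+ cells, the Fos CPM was thus lower in IR while the Jund ratio was above 1 by CPM, at 1.36 and, with an interval that included 1, at 1.29.

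Intercalated duct-like cells, 106 control and 124 IR cells, had members on both sides. Fos was at 259 CPM in control and 92.9 CPM in IR (0.359, 0.252 to 0.509), Ier2 at 228 and 81.5 CPM (0.358, 0.245 to 0.519) and Jun at 246 and 147 CPM (0.596, 0.436 to 0.816). Fosb went the other way, at 73.9 CPM in control and 269 CPM in IR (3.64, 2.36 to 5.85), its highest ratio in any named class with 50 UMIs. Its 165 IR UMIs were spread over 67 of 124 cells with at most 8 in 1 cell, and its 24 control UMIs over 15 of 106 cells. With Zfp36 (1.87), 2 of the 9 genes with 50 UMIs were higher and 3 lower, against 14% of genes higher and 17.4% lower in this class. The classes of the 2 libraries were unlike in depth, with medians of 1264 UMIs in control and 4652.5 in IR, and Jun no longer passed the rule with abundant genes left out (0.697). Striated duct-like cells had 83 control and 27 IR cells, and 5 genes with 50 UMIs (Fos, Jun, Junb, Jund and Atf3), all of which were higher, against 22.9% of genes higher and 22.5% lower. The count was 4 with abundant genes left out and 3 with TMM factors, the summed ratio went from 2.35 to 2.01 and 1.61, and the Fos interval by CPM included 1 (0.971 to 2.82). Atf3 there was at 1169 CPM in control and 2714 CPM in IR, but 27 of its 73 IR UMIs came from 1 cell.

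**Figure D5:**
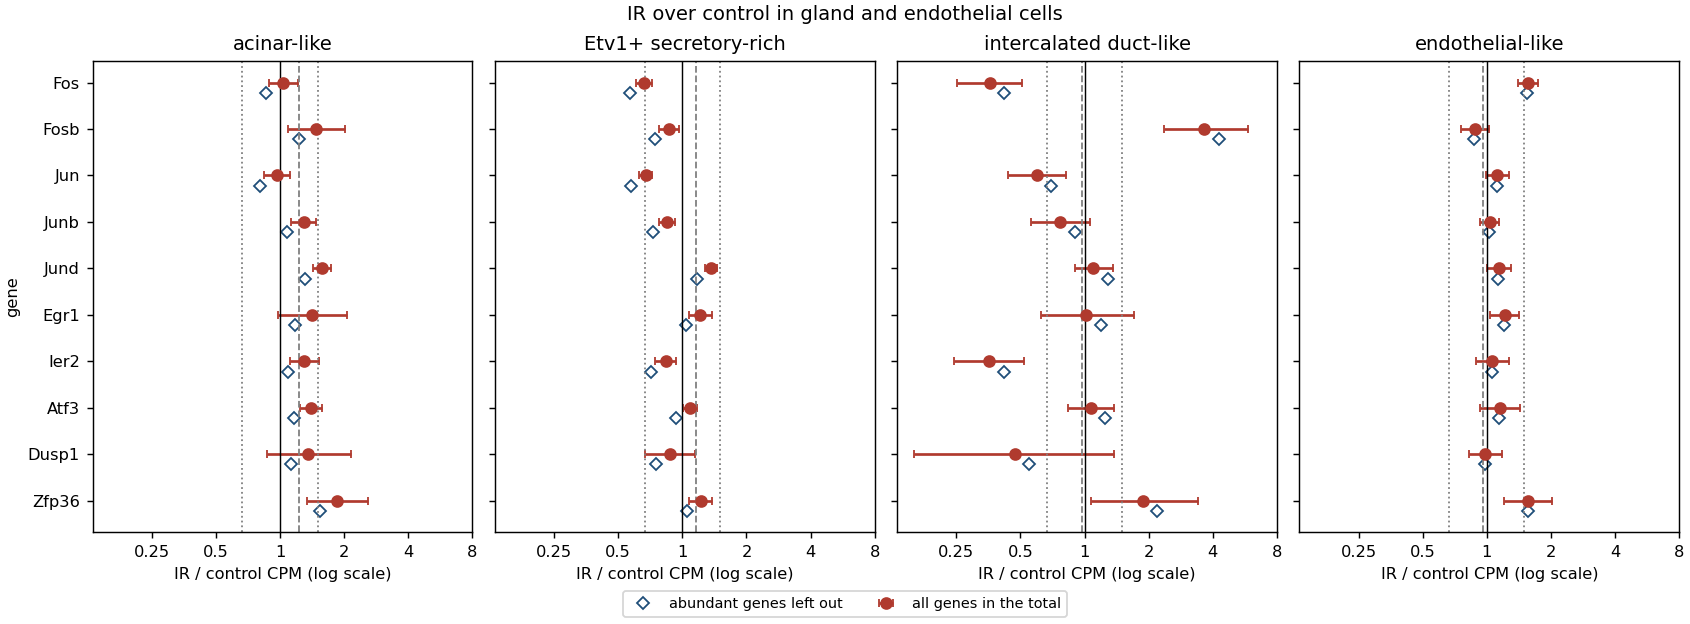
IR over control CPM ratio of each gene on a log axis in acinar-like, Etv1+ secretory-rich, intercalated duct-like and endothelial-like cells. Filled points with exact 95% intervals use all genes in the total, open diamonds leave out abundant genes, the dashed line is the median of all genes tested and the dotted lines are the size rule. Fos lies at 1.04, 0.664, 0.359 and 1.55 in the 4 panels.

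Stromal-like and endothelial-like cells, which held the highest levels in control, had summed ratios of 1.21 (1.15 to 1.27) and 1.15 (1.10 to 1.20). With TMM factors these were 1.02 and 1.12. Stromal-like cells numbered only 27 in control and 16 in IR, with 24968 and 30255 CPM for the 10 genes and median depths of 6498 and 3874 UMIs. Zfp36 was at 675 CPM in control and 1666 CPM in IR, a ratio of 2.47 (1.93 to 3.17), and was the 1 gene higher by the rule, with none lower, against 17% of genes higher and 25% lower. Fos, at 5811 and 6431 CPM, had an interval that included 1, and Jun was lower, at 4631 and 3786 CPM (0.818, 0.717 to 0.930). Endothelial-like cells, 42 control and 38 IR cells, had Fos at 2804 and 4356 CPM (1.55, 1.39 to 1.73) and Zfp36 at 521 and 814 CPM (1.56, 1.21 to 2.03), so 2 were higher and none lower, against 6.19% of genes higher and 11.4% lower. Every stromal-like cell of both libraries held at least 1 UMI of the 10 genes.

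Among myeloid and innate cells, the genes past the size rule were not the same in every class. In the macrophage-like cluster 13, with 36 cells in each library, Zfp36 was at 331 and 504 CPM (1.52, 1.09 to 2.14) and was the 1 gene higher, with none lower, against 8.93% of genes higher and 19.4% lower. Atf3 was at 2182 CPM in control and 1489 CPM in IR there, a ratio of 0.683 (0.582 to 0.7999) that fell just short of the size rule. In the macrophage-like cluster 9 (109 and 85 cells, median depths of 697 and 749 UMIs) the summed level was 2259 CPM in control and 3714 CPM in IR (1.64, 1.38 to 1.96). Jund there was at 435 and 1107 CPM (2.55), Junb at 382 and 966 CPM (2.53) and Jun at 329 and 694 CPM (2.11, 1.36 to 3.34), and the other 7 genes had fewer than 50 UMIs. These 3 genes were all higher, against 22.5% of genes higher and 14.9% lower in the class. In dendritic-like cells, 44 control and 86 IR cells, Fos was at 391 and 848 CPM (2.17, 1.75 to 2.71) and Jun at 384 and 761 CPM (1.98, 1.60 to 2.49), making 2 higher and none lower, against 15.9% of genes higher and 6.59% lower. NK-like cells, 34 control and 80 IR cells, differed from the T-like classes in that Fos was at 319 and 229 CPM, a ratio of 0.716 with an interval that included 1 (0.456 to 1.13). Fosb, at 239 and 369 CPM (1.54, 0.992 to 2.45), was the 1 gene higher in NK-like cells and none was lower, against 15% of genes higher and 7.53% lower.

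The 3 unnamed groups gave mixed values. In the rest of cluster 7, 33 control and 79 IR cells with secretory transcripts at 70.9% and 69.3% of UMIs and median depths of 30134 and 2505 UMIs, the 10 genes together were at 8182 CPM in control and 4897 CPM in IR, a ratio of 0.599 (0.577 to 0.620). A single control cell held 3146 of the 8201 control UMIs of the 10 genes, and without it the ratio was 0.924 (0.888 to 0.962). Fos was at 1308 and 478 CPM (0.365, and 0.556 without that cell) and Ier2 at 666 and 206 CPM (0.309, and 0.538), whereas Dusp1 went from 0.242 to 0.848 and Zfp36 from 0.610 to 1.12 when the cell was left out. In the rest of cluster 5, 96 control and 276 IR cells, the summed ratio was 1.67 and that of Jun 2.74, and these were 1.57 and 2.71 without the IR cell richest in the 10 genes. In the rest of cluster 8, 17 and 25 cells, the summed ratio was 1.10 with an interval that included 1. A single control cell there held 19132 of the 40363 control UMIs of all genes. Without it the summed ratio was 0.814 (0.716 to 0.925), so the direction depended on that cell.

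Read gene by gene, Zfp36 had a ratio over 1 in all 12 named classes where it had 50 UMIs, from 1.22 in Etv1+ secretory-rich to 2.52 in CD8+ T-like cells, also with abundant genes left out, but not in the unnamed rests of clusters 7 (0.610) and 5 (0.813). Fos had a ratio over 1 in 12 of 16 named classes and passed the size rule upwards in 8 and downwards in 3. Jun passed upwards in 8 of 17 named classes and downwards in 1. Ier2 was over 1 in 8 of 15 named classes, with an interval above 1 in 3 and below 1 in 5. Over the named classes Zfp36 thus kept 1 direction, while Fos and Ier2 did not.

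Across the 14 classes with at least 30 cells in each library, the genes outside the set whose log2(CPM + 10) followed the summed level most closely included Ccnl1, Brd2, Ppp1r10, Qk, Elp5, Mat2a, Nfat5, Pcf11 and Picalm, with Pearson r from 0.958 to 0.930 over 28 points among 4769 genes. With abundant genes left out of the totals these r ranged from 0.618 to 0.871. The points share libraries, depth and the fill of secretory transcripts, and the values are a description.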

How the data were processed

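The authors dissociated parotid glands of 2 mice per condition together, made 1 10x Genomics library each, and counted UMIs with Cell Ranger 3.0.1 on mm10, per the submitters' processing notes. The deposited values are raw counts of UMIs for every gene in every barcode. The authors also used Seurat 3 by the same notes. The way cells were told from empty droplets is not given in the sources used here.

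Barcodes were kept if they had 200 genes or more and no more than 5% mitochondrial UMIs. Anchors joined the libraries, and cells were clustered in Seurat 5.3.0 (R 4.3.3; 2000 variable genes, 30 components, resolution 0.3, 14 clusters), leaving out the 10 genes and the other listed immediate early and heat shock genes. Of the clusters, 5 were split again at resolution 0.8. A class was named where 3 or more of its markers, each with 5 UMIs or more, reached 2 times the CPM in the remaining cells. Cell types in the study may differ from these rebuilt names. Scrublet (scanpy 1.11.5, Python 3.11.15) called 32 control cells (0.947%) and 1 IR cell (0.0189%), a share in the IR library too low to rely on, so doublets were kept.

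UMIs were summed per class and library. Sums have exact Poisson intervals, ratios exact conditional binomial intervals and shares Clopper-Pearson intervals, at 95%. With 1 library per condition there is no p-value. Genes with fewer than 50 UMIs in a class were imprecise and were not called. TMM factors came from edgeR 4.0.16. The steps were tested on simulated counts.

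The 10 genes, the lists and the markers were chosen with earlier results of these data known. Named were the 10 genes, the 3 highest and 3 lowest ratios of a list in a class among genes with at least 50 UMIs (of which some are printed), and the 10 genes outside the set closest in pattern among those with at least 500 UMIs. Some genes that these rules name are not reported here. Alternatives were mitochondrial limits, at least 500 genes, no integration, resolution 0.6, doublet scores, totals without abundant genes, TMM, other size rules and unthinned shares.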

Additional observations from a re-analysis of the deposited data

Results flagged for a closer look

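Among the named classes, Fos, Fosb, Jun, Egr1 and Ier2 had IR over control ratios past the size rule in opposite directions in different classes. The share of all genes that did so over these classes was not computed, so this is not set apart from other genes. The difference between classes was not tested, since each condition was 1 library. The Fos ratio was 4.79 in cycling T-like cells, where control held 5 UMIs in 3 of 19 cells, and 0.359 in intercalated duct-like cells. Fosb was at 3.64 in intercalated duct-like cells and at 0.585 in Etv1+ secretory-poor cells. Jun was at 5.66 in CD8+ T-like cells and at 0.596 in intercalated duct-like cells, Egr1 at 2.57 in B-like cells and at 0.564 in Etv1+ secretory-poor cells, and Ier2 at 1.56 in CD8+ T-like cells and at 0.358 in intercalated duct-like cells. In the unnamed rest of cluster 7, Junb (0.566), Atf3 (0.625), Dusp1 (0.242) and Zfp36 (0.610), which were higher in other classes, were lower too, and without the 1 control cell richest in the 10 genes these ratios were 0.936, 1.07, 0.848 and 1.12.

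Barcodes left out for over 5% mitochondrial UMIs, which entered no comparison, also held the 10 genes, at 4534 CPM in 1260 control and 5685 CPM in 1858 IR barcodes.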

How the results depend on the processing

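Each condition was 1 library, so no alternative bears on the spread between mice, and genes under 50 UMIs in a class were not called. No paired analysis was possible because each condition had 1 library. The alternatives on cell filters, integration, resolution and doublet scores were run for the summed ratio and the count in acinar-like, Etv1+, B-like and all T-like cells. None of these, nor the other scalings and size rules, turned a call past the size rule to the opposite side there, and the Etv1+ summed ratio crossed 1. Single genes and the other classes were recomputed under the scalings only. Leaving out the richest cell of each unnamed rest was chosen after seeing the data.

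The summed ratio in acinar-like cells, 1.32, was 1.10 with abundant genes left out and 1.04 with TMM factors. The count past the size rule there, 2, was 4 with at least 500 genes per cell, 1 with abundant genes left out, 0 with TMM factors, 0 with a rule of 2 times and 8 with a laxer one. In Etv1+ cells of both parts the summed ratio, 0.976, was 1.04 without integration, 0.825 with abundant genes left out and 0.796 with TMM factors, and the count, 0, was 2, 2 and 4 with abundant genes left out, TMM factors and the laxer rule. In B-like cells the summed ratio, 1.18, was 1.21 at a mitochondrial limit of 10% and 1.08 with TMM factors, and the count, 5, was 3 with a rule of 2 times. In all T-like cells the ratio, 1.43, was 1.39 at a limit of 10%, 1.38 with no limit, 1.31 with at least 500 genes, 1.40 at resolution 0.6 and 1.27 with TMM factors, and the count, 4, was 2 with a rule of 2 times and 6 with at least 500 genes or with the laxer rule. The T-like values with at least 500 genes came from 263 control and 442 IR cells, against 1194 and 2846 in the main setting. They therefore describe a smaller part of the T-like cells. Etv1+ secretory-rich cells moved from place 14 to place 5 with abundant genes left out. The share of IR naive T-like cells with Fos, 20.8%, was 34.7% without thinning. At a mitochondrial limit of 10% no cluster was named Etv1+, so no value was obtained for it. The cause of these shifts was not tested.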

Other observations

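The barcodes with 5 to 10% mitochondrial UMIs held the 10 genes at 4881 CPM in control and 6669 CPM in IR, with secretory transcripts at 32.8% and 23.1% of UMIs. Those with over 10% held 4150 CPM in control and 4283 CPM in IR. Barcodes with under 200 genes held 503 CPM (469 to 539) in control and 677 CPM (622 to 735) in IR.

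Klf2 and Klf4, Krüppel-like factors outside the set, moved in some classes with few members past the size rule. In the macrophage-like cluster 13 Klf4 was at 1304 CPM in control and 287 CPM in IR, a ratio of 0.220 (0.159 to 0.3004). In stromal-like cells Klf2 was at 1602 and 617 CPM, a ratio of 0.385 (0.282 to 0.518), whereas in dendritic-like cells it was at 409 and 980 CPM, a ratio of 2.39 (1.95 to 2.96).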
